A study of Mus musculus with 5 samples.

Results

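Collagen genes, which encode the alpha chains of the collagens, were followed across 5 RNA libraries of mouse visceral adipose tissue. The members were all genes of the deposited count table whose symbol has the form Col, a type number, the letter a and a chain number. This gave 44 genes of 78334 rows, of which 51486 carry a symbol. They comprise 11 fibrillar genes, 6 genes of collagen IV (the basement membrane class), 6 genes of collagen VI and 21 genes of other types. Of the 44, 40 had enough counts to be tested and 36 averaged at least 1 CPM (counts scaled to library size) over the 5 libraries.

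All mice were male C57BL/6, an inbred laboratory strain, 8 weeks old when the diets began and 16 weeks old when daily dosing by gastric tube began, which lasted 28 days. Tissue was collected 12 weeks after the diets began. The control group (1 library) came from standard chow and vehicle. The obesity group (2 libraries) was fed a chow that drew 60% of its energy from fat over 8 weeks and then had vehicle. The resveratrol group (2 libraries) had the same diet and then resveratrol, a plant polyphenol, at 2.25 mg/kg. The labels do not say whether the fatty diet went on during dosing, nor do they tie each library to a mouse of its own. The p-values therefore measure the spread between libraries, which may be technical.

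Collagens are the main structural proteins of the extracellular matrix. Their alpha chains are hydroxylated and folded into a helix in the endoplasmic reticulum, trimmed outside the cell and cross-linked by lysyl oxidases. Fibrillar collagens form the tensile fibres of connective tissue, collagen IV forms the sheet of the basement membrane, and collagen VI forms beaded filaments close to cells. In fat, each adipocyte is wrapped in a basement membrane, and collagen deposition around adipocytes is a known feature of obesity in mice.

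Total counts ranged from 19540961 to 27026597, and a count of 3 in a library, the upper limit that a count of 0 allows, corresponds to 0.105 to 0.157 CPM (counting error alone). Levels are CPM scaled by TMM, a correction for library composition. The libraries differed in the tissue they held. The 12 adipocyte markers summed to 507 CPM in control, 25189 and 28396 CPM in obesity libraries 1 and 2, and 6856 and 28231 CPM in resveratrol libraries 1 and 2, with none of the 12 at a count of 0 in any library. The 10 epididymal markers, led by Gpx5, summed to 63169 CPM in control and at most 17.6 CPM in obesity and resveratrol library 2, and in each of obesity library 2 and resveratrol library 2, taken alone, 9 of the 10 had 0 counts. In resveratrol library 1 they summed to 3412 CPM, nearly all of it Crisp1, with 3 of the 10 at 0 counts. The 8 smooth muscle markers, led by Myh11, summed to 45687 CPM in resveratrol library 1, 2325 CPM in control and 361 to 641 CPM in the other libraries. The 10 fibroblast and progenitor markers, led by Dcn, summed to 555 CPM in control, 1199.7 to 1516 CPM in obesity, and 952 and 1660.0 CPM with resveratrol. They were not uniform, since 7 were higher and 3 lower in obesity than in control. The 10 macrophage markers ran from 202 CPM in control through 541 CPM in resveratrol library 1 to between 2876 and 3426 CPM in the other 3, and the 8 endothelial markers from 154 and 239 CPM to between 652 and 1399 CPM. The 8 mesothelial markers summed to 201 CPM in control, 232 and 35.04 CPM in obesity, and 218 and 432 CPM with resveratrol. In control, obesity library 1 and resveratrol library 1 most of that sum came from Krt19 and Upk1b, whereas Msln, Upk3b, Lrrn4, Wt1, Bnc1 and Prg4, named after their values were seen, were each highest in resveratrol library 2. The median marker of the list stood at 18.02% of the obesity mean in resveratrol library 1 as against 842% in resveratrol library 2. The part of these tissue differences in the collagen levels below was not tested. In bulk tissue, fewer cells of a type and less RNA per cell cannot be told apart.

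Collagen transcripts were abundant in the obesity libraries and scarce in the control library. All 44 genes together stood at 15009 and 16314 CPM in obesity libraries 1 and 2, 16365 CPM in resveratrol library 2, 5989 CPM in resveratrol library 1 and 1399.8 CPM in control. The obesity mean was 11.2 times the control level. Relative to that mean, resveratrol library 1 lay at 38.2% and resveratrol library 2 at 104.5%. The summed level of the resveratrol group (11177 ± 7337 CPM, SD, n = 2) was not separable from that of the obesity group (15661 ± 923 CPM, SD, n = 2) by an exact two-sided permutation test over libraries (p = 1), for which 0.333 is the smallest p possible. The resveratrol libraries lay on either side of both obesity libraries. The log2 ratio of the resveratrol to the obesity mean was -0.49, and without resveratrol library 1 it was 0.063.

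**Figure D1:**
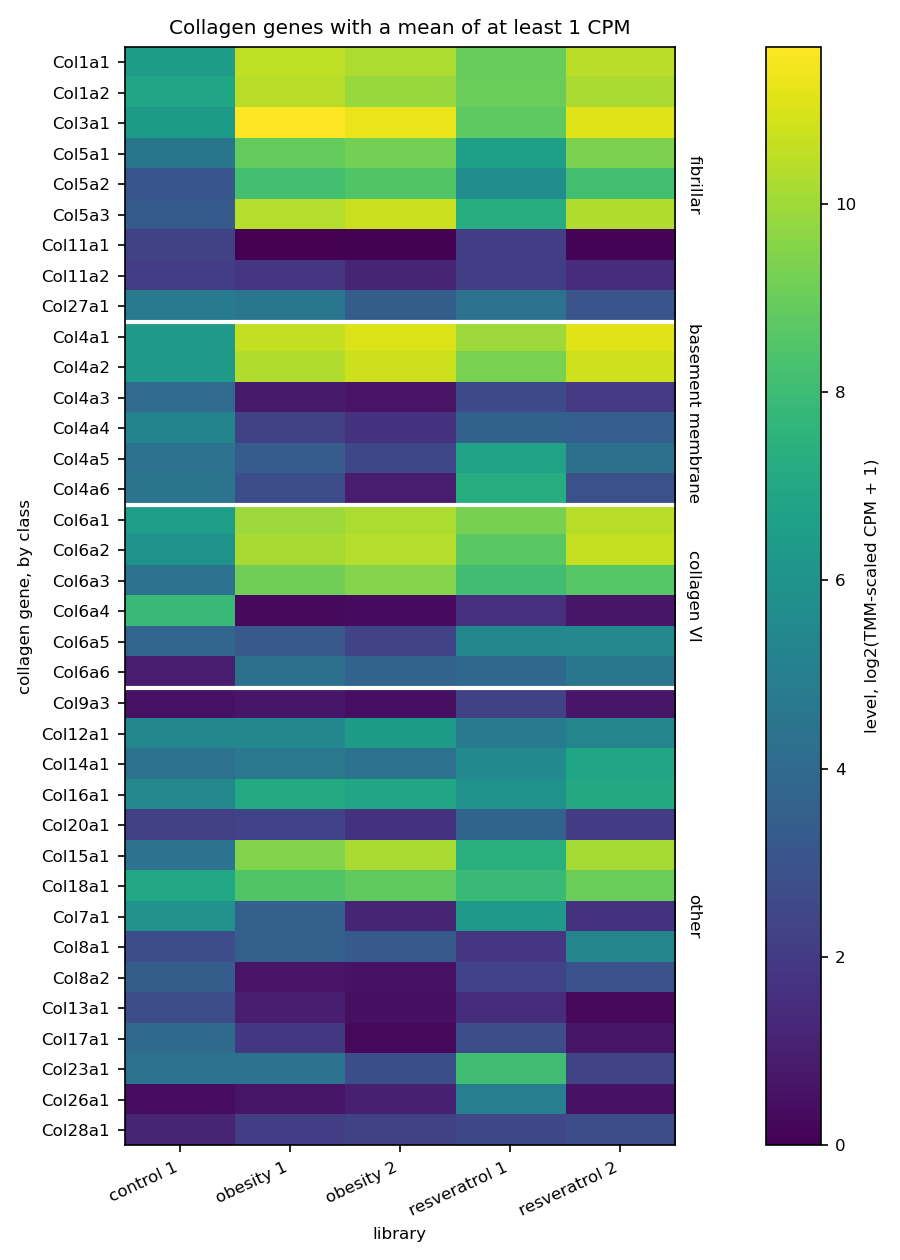
Level of the 36 collagen genes with a mean of at least 1 CPM, as log2(TMM-scaled CPM + 1), in each of the 5 libraries (columns), with rows grouped by class and white lines between classes. The leading fibrillar, collagen IV and collagen VI genes are bright in both obesity libraries and resveratrol library 2, dimmer in resveratrol library 1 and darkest in control, whereas Col6a4 is bright in control alone.

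The fibrillar genes held the largest part of the collagen counts in the obesity libraries and resveratrol library 2, where adipocyte markers were abundant. As a class they summed to 355 CPM in control, 8194 and 7338 CPM in obesity, and 1771 and 6872 CPM with resveratrol. Col1a1 and Col1a2 encode the chains of collagen I, the principal fibre of connective tissue. Col1a1 was at 82.5 CPM in control, as compared with 1494 and 1187 CPM in obesity libraries 1 and 2, and 493 and 1387 CPM in resveratrol libraries 1 and 2. Col1a2 was at 117 CPM in control against 1352 and 936 CPM in obesity, and 511 and 1164 CPM with resveratrol. Both genes were lowest in control and next lowest in resveratrol library 1, and resveratrol library 2 lay between the obesity libraries. Col3a1, the gene of collagen III, a partner of collagen I in pliable tissue, was at 81.3 CPM in control against 3246 and 2523 CPM in obesity, and 442 and 2154 CPM with resveratrol. For Col3a1 both resveratrol libraries lay below both obesity libraries, and resveratrol library 1 held 15.3% of the obesity mean against 74.7% in resveratrol library 2.

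The genes of collagen V, a minor chain family that sits inside collagen I fibres and helps to start them, were also scarce in control. Col5a1 was at 22.04 CPM in control against 484 and 600.2 CPM in obesity, and 94.8 and 654 CPM with resveratrol. Col5a2 was at 7.602 CPM in control against 288 and 361 CPM in obesity, and 51.1 and 276 CPM with resveratrol. Col5a3, a chain gene of collagen V, was at 8.997 CPM in control against 1304 and 1719 CPM in obesity, and 151 and 1229 CPM with resveratrol. Of all fibrillar genes above 1 CPM in obesity, Col5a3 had the widest gap between obesity and control, a log2 difference of 7.39 (SE 1.96). Of its obesity mean, 10.02% was present in resveratrol library 1 as against 81.3% in resveratrol library 2. The remaining fibrillar genes were low. Col27a1, a fibrillar gene of cartilage and other tissues, was at 28.04 CPM in control against 22.8 and 9.902 CPM in obesity, and 20.1 and 7.47 CPM with resveratrol, and its obesity and resveratrol libraries overlapped. Col11a2, a collagen XI gene, was at 3.35 CPM in control against 2.56 and 1.33 CPM in obesity, and 3.498 and 1.75 CPM with resveratrol. Col11a1, its partner, was at 3.84 and 3.41 CPM in control and resveratrol library 1, and had at most 2 counts in each of the other 3 libraries. Col24a1 stayed below 1 CPM in every library. Col2a1, the cartilage collagen, stayed below 0.5 CPM and was not tested.

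The upstream sequence of Col3a1 is shown because Col3a1 had the highest mean level per length of all collagen genes in the obesity libraries. The sequence is the RefSeq window of 250 bases before the annotated start on build GRCm38.p6, plus strand, at chr1:45311288-45311537. The count files use GRCm39, so only the letters of the window are used. Capitals mark a match to any of 3 motifs on either strand, namely the CCAAT box, the GC box with the letters GGGCGG and the TATA box with the letters TATAAA.
Col3a1: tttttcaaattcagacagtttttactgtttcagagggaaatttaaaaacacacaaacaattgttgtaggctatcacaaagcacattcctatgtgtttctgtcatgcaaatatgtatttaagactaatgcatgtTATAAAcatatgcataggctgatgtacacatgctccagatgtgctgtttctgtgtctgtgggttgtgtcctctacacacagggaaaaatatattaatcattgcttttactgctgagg
This window holds 1 match to the TATA box and none to the other motifs. Among all 32851 RefSeq windows of that length, 12.4% hold the TATA box, 33.8% hold the CCAAT box and 32.7% hold the GC box. A match is a description of the letters and not a measured site.

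Collagen IV showed a split by gene pair. Its 6 genes lie head to head as pairs, each sharing an upstream region, and encode chains of different basement membrane networks. Col4a1 and Col4a2 encode the network found in nearly all basement membranes. Col4a1 was at 79.6 CPM in control, as compared with 1544 and 2119 CPM in obesity libraries 1 and 2, and 1005 and 2276 CPM in resveratrol libraries 1 and 2. Col4a2 was at 76.2 CPM in control against 1224 and 1726 CPM in obesity, and 632 and 1816 CPM with resveratrol. Resveratrol library 2 was the highest library for both, and resveratrol library 1 held 54.9% and 42.8% of the obesity means. The first exons of Col4a1 and Col4a2 overlap on opposite strands in the annotation at hand, and the strand setting of the counting is not given, although the kit marks strand, so reads of the shared bases cannot be assigned.

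Col4a3 and Col4a4 encode chains of the network known from the kidney glomerulus. Their levels ran the other way. Col4a3 was at 15.8 CPM in control against 0.783 and 0.524 CPM in obesity, and 5.13 and 2.84 CPM with resveratrol. Col4a4 was at 37.3 CPM in control against 3.96 and 2.19 CPM in obesity, and 11.4 and 10.2 CPM with resveratrol. For both genes control was highest, the obesity libraries were lowest and the resveratrol libraries lay between them without overlap. Col4a5 and Col4a6 encode chains of a network known from smooth muscle and some epithelia. Col4a5 was at 20.2 CPM in control against 9.44 and 4.52 CPM in obesity, and 106 and 18.98 CPM with resveratrol. Col4a6 was at 21.4 CPM in control against 5.79 and 0.857 CPM in obesity, and 152 and 6.46 CPM with resveratrol. Resveratrol library 1, which held the smooth muscle markers at 45687 CPM, was far above the other libraries for both, and resveratrol library 2 was above both obesity libraries by a smaller margin. Without resveratrol library 1 the log2 difference of Col4a5 from obesity was 1.46 in place of 3.16.

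The windows upstream of Col4a5 and Col4a6 are shown because these neighbours, whose RefSeq starts on chromosome X lie 1342 bases apart on opposite strands, had their highest level in the same library. Both are on build GRCm38.p6, with motifs in capitals as above. The Col4a5 stretch (plus strand, chrX:141475169-141475384) ends where the annotated first exon begins, and the Col4a6 window (minus strand, chrX:141474077-141474326) is complete.
Col4a5: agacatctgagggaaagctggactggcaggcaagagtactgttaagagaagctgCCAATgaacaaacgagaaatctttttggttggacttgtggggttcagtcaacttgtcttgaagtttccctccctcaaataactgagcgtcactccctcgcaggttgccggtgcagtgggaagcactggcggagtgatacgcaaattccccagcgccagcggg
Col4a6: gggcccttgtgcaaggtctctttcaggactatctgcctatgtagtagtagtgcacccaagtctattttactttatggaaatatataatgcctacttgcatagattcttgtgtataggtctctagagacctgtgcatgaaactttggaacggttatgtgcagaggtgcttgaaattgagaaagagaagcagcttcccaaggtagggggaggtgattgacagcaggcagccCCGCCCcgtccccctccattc
The Col4a5 stretch of 216 bases holds 1 match to the CCAAT box. The Col4a6 window holds 1 match to the GC box, on the opposite strand. Neither holds the TATA box.

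As shares of all collagen IV counts, Col4a1 and Col4a2 made up 99.3% and 99.8% in the obesity libraries and 99.1% in resveratrol library 2. They made up 85.7% in resveratrol library 1 and 62.2% in control. The Col4a5 and Col4a6 pair made up 16.6% in control and 13.5% in resveratrol library 1, and at most 0.616% elsewhere. The Col4a3 and Col4a4 pair made up 21.2% in control and under 1% in the other libraries. Shares of collagen counts do not depend on how libraries are scaled, and their 95% Wilson intervals reached at most 1.13 percentage points to either side, for counting error alone.

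**Figure D2:**
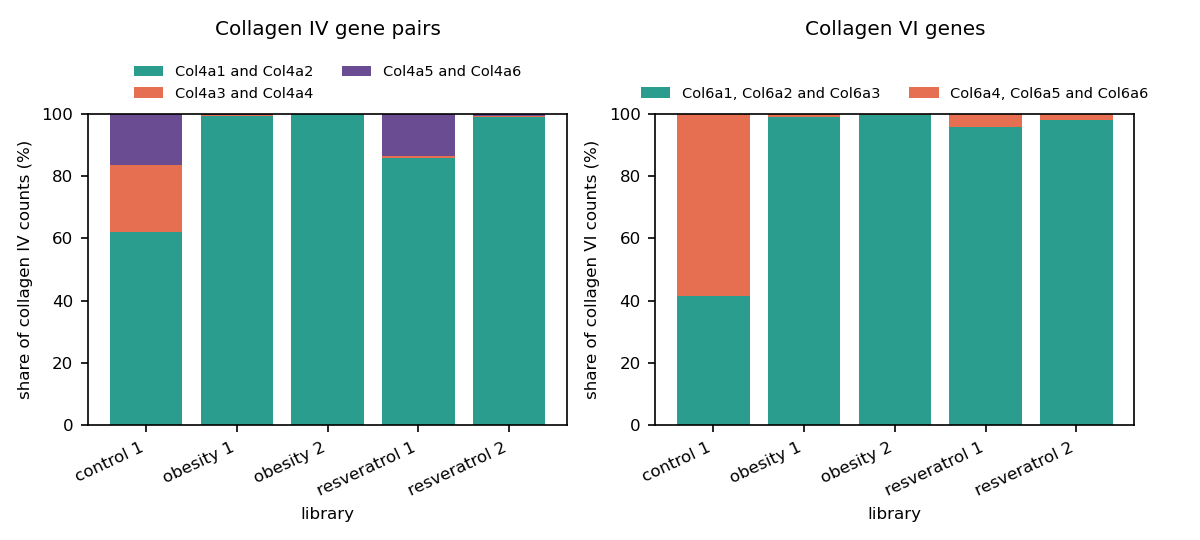
Stacked bars of the share (%) of collagen IV counts held by each gene pair (left) and of collagen VI counts held by Col6a1 to Col6a3 against Col6a4 to Col6a6 (right) in each of the 5 libraries. The control bar departs from the others in both panels, with 21.2% from Col4a3 and Col4a4 and 58.6% from Col6a4 to Col6a6, and resveratrol library 1 departs for Col4a5 and Col4a6 with 13.5%.

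In collagen VI the later-named genes Col6a4 to Col6a6 did not move as a group. Col6a4 was highest in control, Col6a5 was highest with resveratrol, and Col6a6 was lowest in control, as were the classical Col6a1 to Col6a3. Col6a1, Col6a2 and Col6a3 encode the chains that assemble into the beaded filament, and the C-terminal piece of the Col6a3 product is the adipose signal endotrophin. Col6a1 was at 91.4 CPM in control, as compared with 983 and 1188 CPM in obesity libraries 1 and 2, and 608 and 1355 CPM in resveratrol libraries 1 and 2. Col6a2 was at 61.3 CPM in control against 1138 and 1313 CPM in obesity, and 409.7 and 1569.8 CPM with resveratrol. Col6a3 was at 20.7 CPM in control against 557 and 737 CPM in obesity, and 272 and 396 CPM with resveratrol. Control was lowest for all of these, and Col6a1 and Col6a2 were highest in resveratrol library 2. Col6a3 did not follow its partners there, since both resveratrol libraries lay below both obesity libraries, at 42.04% and 61.2% of the obesity mean.

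Col6a4, Col6a5 and Col6a6 encode chains that can take the place of the Col6a3 product. Col6a4 was at 232 CPM in control against 0.209 and 0.286 CPM in obesity, and 1.999 and 0.622 CPM with resveratrol. It was the most abundant collagen gene per length in control, where epididymal markers summed to 63169 CPM, and rested on 4 and 6 counts in the obesity libraries. Col6a5 was at 12.8 CPM in control against 8.504 and 4.28 CPM in obesity, and 42.5 and 44.1 CPM with resveratrol. The resveratrol libraries lay close together for Col6a5 (43.3 ± 1.18 CPM, SD, n = 2) and both lay above obesity (6.39 ± 2.98 CPM, SD, n = 2). Col6a6 was at 0.907 CPM in control against 18.9 and 12.04 CPM in obesity, and 14.3 and 23.2 CPM with resveratrol, with overlapping obesity and resveratrol libraries. Together Col6a4 to Col6a6 made up 58.6% of collagen VI counts in control and between 0.5105% and 4.36% elsewhere. In control, 6643 of their 7036 counts were of Col6a4.

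Of the other types, the multiplexins Col15a1 and Col18a1 were the most abundant. They encode basement membrane collagens with interrupted helices, and the C-terminal fragment of the Col18a1 product is endostatin. Col15a1 was at 20.96 CPM in control against 703 and 1177 CPM in obesity, and 169 and 1106 CPM with resveratrol. Col18a1 was at 127 CPM in control against 357 and 445 CPM in obesity, and 234 and 519 CPM with resveratrol. Col15a1 was very low in control and held 17.9% of the obesity mean in resveratrol library 1, while Col18a1 was less unequal between libraries.

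The FACIT collagens, which coat the surface of fibres, varied among themselves. Col12a1 was at 40.9 CPM in control against 43.2 and 81.5 CPM in obesity, and 26.5 and 39.2 CPM with resveratrol, so both resveratrol libraries lay below both obesity libraries. Col14a1 was at 19.9 CPM in control against 23.5 and 19.3 CPM in obesity, and 46.5 and 116 CPM with resveratrol. Here the resveratrol libraries lay above the obesity libraries. Resveratrol library 2, the highest, also held the most fibroblast and progenitor marker counts (1660.0 CPM). Resveratrol library 1, however, held fewer of them (952 CPM) than the obesity libraries (1516 and 1199.7 CPM). The relation was not tested. Col16a1 was at 43.4 CPM in control against 139.5 and 120.2 CPM in obesity, and 61.6 and 131 CPM with resveratrol, low in control and resveratrol library 1. Col20a1 was at 3.66 CPM in control against 4.07 and 2.24 CPM in obesity, and 12.6 and 3.11 CPM with resveratrol, with its highest level in resveratrol library 1. Col9a3 was at 0.453 CPM in control against 0.626 and 0.381 CPM in obesity, and 3.77 and 0.622 CPM with resveratrol, and Col22a1 passed 1 CPM in resveratrol library 1 alone, at 1.14 CPM. Col9a1, Col9a2 and Col19a1 stayed below 1 CPM in every library.

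Among network and anchoring collagens, Col8a1 and Col8a2 encode the short-chain collagen of vessel walls and the cornea. Col8a1 was at 5.72 CPM in control against 10.8 and 8.66 CPM in obesity, and 2.59 and 38.04 CPM with resveratrol, highest in resveratrol library 2 and lowest in resveratrol library 1. Col8a2 was at 9.76 CPM in control against 0.522 and 0.476 CPM in obesity, and 4.09 and 6.73 CPM with resveratrol. Both resveratrol libraries were above both obesity libraries for Col8a2, and control was higher still. Col7a1, the anchoring fibril gene of stratified epithelia, was at 59.04 CPM in control against 10.8 and 1.33 CPM in obesity, and 77.4 and 2.26 CPM with resveratrol, high in control and resveratrol library 1. Col10a1, the collagen of growth cartilage, stayed below 0.2 CPM and was not tested.

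The transmembrane collagens are anchored in the cell surface. As a class they summed to 42.5 CPM in control, 23.8 and 6.62 CPM in obesity, and 283 and 5.10 CPM with resveratrol. Col23a1 was at 20.4 CPM in control against 20.03 and 5.903 CPM in obesity, and 275 and 4.28 CPM with resveratrol, far higher in resveratrol library 1 than in any other library. Col17a1, a hemidesmosome component of epithelia, was at 15.6 CPM in control against 2.77 and 0.1904 CPM in obesity, and 5.72 and 0.584 CPM with resveratrol, and Col13a1 at 5.79 CPM in control against 0.991 and 0.381 CPM in obesity, and 1.91 and 0.233 CPM with resveratrol. Both were highest in control. Col25a1 was below 1 CPM in control and obesity and had no count in either resveratrol library. Of the remaining types, Col26a1 was at 0.314 CPM in control against 0.574 and 1.05 CPM in obesity, and 30.4 and 0.467 CPM with resveratrol, again with resveratrol library 1 apart, and Col28a1 at 1.32 CPM in control against 3.34 and 3.71 CPM in obesity, and 4.63 and 5.796 CPM with resveratrol, where both resveratrol libraries lay above both obesity libraries. The genes high in resveratrol library 1, such as Col23a1 and Col26a1, stood beside the smooth muscle markers of that library, and the relation was not tested.

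To compare genes with each other, levels were divided by exonic length (CPM per kilobase, lengths from GENCODE M21). In obesity the order was led by Col3a1 at 294 ± 52.1 (SD, n = 2), Col6a1 at 248 ± 33.1, Col4a1 at 245 ± 54.5, Col4a2 at 223 ± 53.6, Col5a3 at 222 ± 43.1 and Col1a1 at 204 ± 33.04 CPM per kilobase. Neighbours in this order differed by less than the larger of their SDs. Col15a1 (148 ± 52.8) and Col6a2 (147 ± 14.9) followed. In control the order began with Col6a4 at 27.2, Col6a1 at 20.9 and Col18a1 at 18.1 CPM per kilobase. In resveratrol library 1 it began with Col6a1 at 139 and Col4a1 at 135, and in resveratrol library 2 with Col6a1 at 309, Col4a1 at 305 and Col4a2 at 274 CPM per kilobase, ahead of Col3a1 at 219.

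The mix of classes differed between libraries. Fibrillar genes made up 54.6% and 44.98% of collagen counts in the obesity libraries, 41.99% in resveratrol library 2, 29.6% in resveratrol library 1 and 25.4% in control. Collagen IV made up 18.6% and 23.6% in obesity, 31.9% and 25.2% with resveratrol, and 17.9% in control. Collagen VI ranged from 18.02% in obesity library 1 to 29.9% in control. The other types made up 26.8% in control and 8.81% to 15.99% in the remaining libraries.

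**Figure D3:**
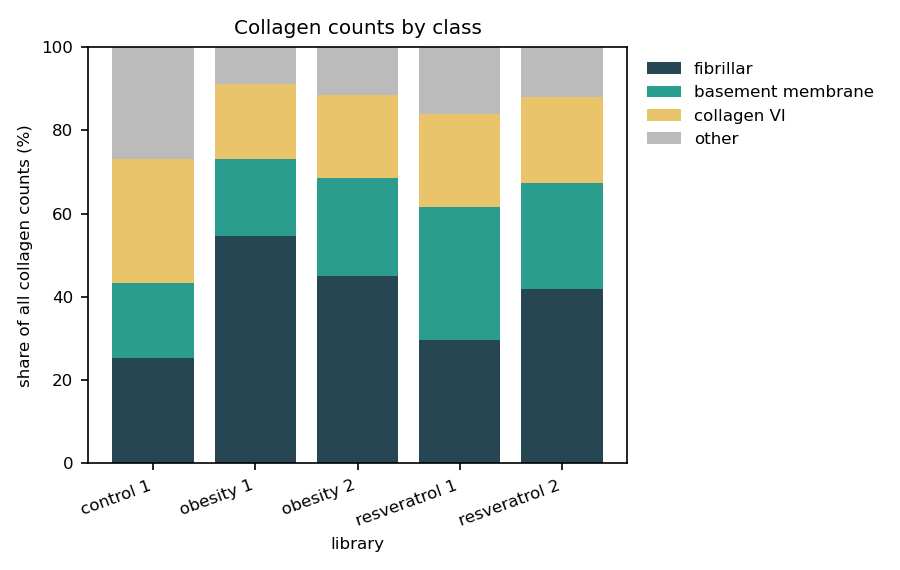
Stacked bars of the share (%) of all collagen counts held by fibrillar, basement membrane (collagen IV), collagen VI and other collagen genes in each of the 5 libraries. The fibrillar part runs from 54.6% in obesity library 1 to 25.4% in control, and the collagen IV part is largest in resveratrol library 1 at 31.9%.

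Ratios between the leading chains of collagens I, IV and VI were compared library by library. The ratio of Col1a1 to Col1a2 counts was 1.105 and 1.27 in obesity libraries 1 and 2 and 1.19 in resveratrol library 2. It was 0.966 in resveratrol library 1 and 0.707 in control. The ratio of Col4a1 to Col4a2 was 1.26, 1.23 and 1.25 in the same 3 libraries, 1.59 in resveratrol library 1 and 1.04 in control. For Col6a1 to Col6a2 the 3 ratios were 0.864, 0.905 and 0.863, against 1.48 in resveratrol library 1 and 1.49 in control. The ratio of Col3a1 to Col1a1, chosen after its values were seen, was 2.17 and 2.12 in obesity, 1.55 in resveratrol library 2, 0.897 in resveratrol library 1 and 0.985 in control. These ratios mix gene lengths, so only their change between libraries can be read.

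**Figure D4:**
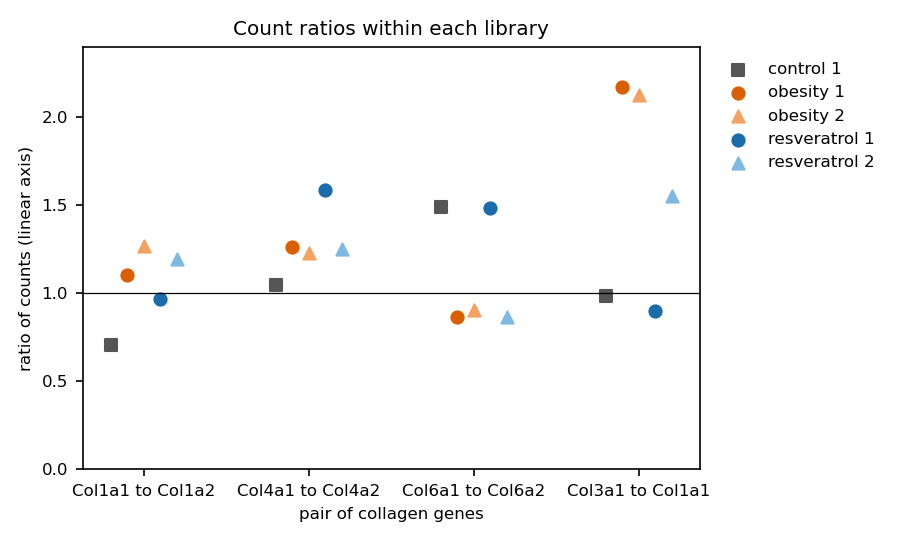
Ratio of the counts of paired collagen genes (linear axis) in each of the 5 libraries, with a line at 1. Obesity libraries 1 and 2 and resveratrol library 2 lie close together for Col4a1 to Col4a2 and Col6a1 to Col6a2, with control and resveratrol library 1 apart from them. For Col1a1 to Col1a2 control (0.707) is lowest and resveratrol library 1 (0.966) lies near obesity library 1 (1.105), and for Col3a1 to Col1a1 resveratrol library 2 (1.55) is also below obesity.

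The comparison of obesity with control asked how the diet changed visceral fat. Of 40 collagen genes tested, 22 were higher and 18 lower in obesity, with a median log2 difference of 0.38 against -0.10 over all 24779 genes tested. Without obesity library 1 the collagen median was -0.028. By class the median was 3.66 for 10 fibrillar genes, 3.83 for 6 collagen VI genes, -2.11 for 6 collagen IV genes and 0.12 for 18 other genes, and differences between classes were not tested. The collagen IV median runs over 2 higher and 4 lower genes, while the class sum was 250.5 CPM for control, 2788 and 3854 CPM in obesity, and 1911 and 4131 CPM with resveratrol. By the quasi-likelihood test of edgeR, no collagen gene reached an adjusted p of 0.05, and 0.0% of all genes did. On simulated data this fit recovered 0% of genes changed 16-fold in this comparison, so the lack of calls says little. Both obesity libraries lay above control for 19 of 40 (40.8% of all genes) and below it for 16 of 40 (48.6% of all genes). An unadjusted p under 0.05 was found for 18 collagen genes (24.3% of all genes), 13 higher (12.6% of all genes tested) and 5 lower ones (11.7% of all genes tested). The 13 were Col1a1, Col1a2, Col3a1, Col5a1, Col5a2, Col5a3, Col4a1, Col4a2, Col6a1, Col6a2, Col6a3, Col6a6 and Col15a1, and the 5 were Col4a3, Col4a4, Col6a4, Col8a2 and Col11a1.

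Their differences were large. Col3a1 differed by 5.15 (SE 1.502) on the log2 scale, with an edgeR adjusted p of 0.184. Col1a1 differed by 4.02 (SE 1.03), Col4a1 by 4.53 (SE 1.02), Col6a3 by 4.96 (SE 0.657) and Col15a1 by 5.49 (SE 1.66). In the other direction Col6a4 differed by -9.84 (SE 0.898), Col4a3 by -4.59 (SE 0.682), Col4a4 by -3.60 (SE 0.5005) and Col8a2 by -4.28 (SE 0.635). The smallest adjusted p of any collagen gene was 0.160 in edgeR, and limma-voom called 0 genes. DESeq2 called 18 of the 40 (18.3% of all genes), 13 higher and 5 lower, where it called 10.8% of all genes as higher and 7.44% as lower. Without resveratrol library 1 edgeR called 21 of 38 collagen genes tested (37.9% of all genes), and without resveratrol library 2 it called 21 of 40 (37.3% of all genes). With only the obesity and control libraries in the fit it called 21 of 38 (39.4% of all genes), and with no filter on low counts 12 of 44 (5.92% of all genes). The sole control library, poor in adipocyte markers and rich in epididymal markers, could not be left out, and diet and tissue sampled cannot be told apart here.

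The comparison of resveratrol with obesity asked how the compound changed fat on the high-fat diet. Among 40 collagen genes tested, 22 were higher and 18 lower, with a median log2 difference of 0.50 against 0.05 over all genes. The class medians were -0.52 for fibrillar, 2.20 for collagen IV, 0.07 for collagen VI and 1.08 for other genes. Without obesity library 1 the median was 0.98, and without obesity library 2 it was 0.09. By edgeR none was called (0.0% of all genes), and the smallest adjusted p was 0.899. By limma-voom 0 genes were called too. On simulated data the edgeR fit recovered 39% of genes changed 16-fold in this comparison and 1% of those changed 4-fold. Its lack of calls thus says little about changes of 4-fold. This comparison shares the obesity libraries with the comparison above.

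An unadjusted p under 0.05 was found for 7 collagen genes (2.34% of all genes), all higher (1.92% of all genes tested were higher at that level), and for 0 lower (0.428% of all genes). The 7 were Col4a3, Col4a4, Col4a5, Col6a4, Col6a5, Col8a2 and Col14a1. Col6a5 differed by 2.76 (SE 0.442) on the log2 scale, Col8a2 by 3.43 (SE 0.572) and Col14a1 by 1.92 (SE 0.525). Col4a3 differed by 2.60 (SE 0.592), Col4a4 by 1.81 (SE 0.431), Col4a5 by 3.16 (SE 1.001) and Col6a4 by 2.37 (SE 0.7095). Without resveratrol library 1 the Col6a4 difference was 1.32. DESeq2 called Col4a3, Col6a5 and Col8a2 (adjusted p 0.03402, 0.000186 and 0.000526), where it called 0.884% of all genes, 0.803% as higher and 0.0807% as lower. With no filter on low counts edgeR called Col6a5 alone of 44 (0.0574% of all genes). Without resveratrol library 1, edgeR called Col14a1 alone of 38 collagen genes (0.136% of all genes), with a log2 difference of 2.45 and an adjusted p of 0.0246. Without resveratrol library 2 it called 21 of 40 (19.5% of all genes), among them Col14a1 at 1.13 and an adjusted p of 0.0227, whereas with either obesity library left out its adjusted p was 1. In the absence of both the control library and resveratrol library 1, it called Col14a1, Col8a1 and Col8a2 of 35 (0.334% of all genes). The left-out library's group then held 1 library, which was assumed to vary like the others.

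Both resveratrol libraries lay above both obesity libraries for 11 of 40 collagen genes (16.9% of all genes) and below both for 7 of 40 (16.7% of all genes). The 11 were Col4a3, Col4a4, Col4a5, Col4a6, Col6a4, Col6a5, Col8a2, Col11a1, Col14a1, Col22a1 and Col28a1. The 7 were Col3a1, Col5a2, Col5a3, Col6a3, Col12a1, Col24a1 and Col25a1. Some of these orders rest on few counts. Col24a1 had 6 counts in both obesity library 2 and resveratrol library 1. Col25a1 had 1 and 3 counts in obesity against 0 with resveratrol. Col11a1 had 0 and 1 counts in obesity against 2 in resveratrol library 2. Over the 29 collagen genes with an obesity mean of at least 1 CPM, the median gene of resveratrol library 1 stood at 56.0% of that mean, and that of resveratrol library 2 at 118%. For 8 fibrillar genes these medians were 27.1% and 87.6%, and for 5 collagen IV genes 370.5% and 194%. Over all genes with such an obesity mean they were 92.1% and 97.8%. The collagen IV medians fell on Col4a4 and Col4a6, with obesity means of 3.08 and 3.32 CPM. The abundant Col4a1 stood at 54.9% and 124%, and Col4a2 at 42.8% and 123%. In the same order of libraries the adipocyte markers had medians of 24.3% and 112%, and the fibroblast and progenitor markers 64.7% and 139.8%.

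**Figure D5:**
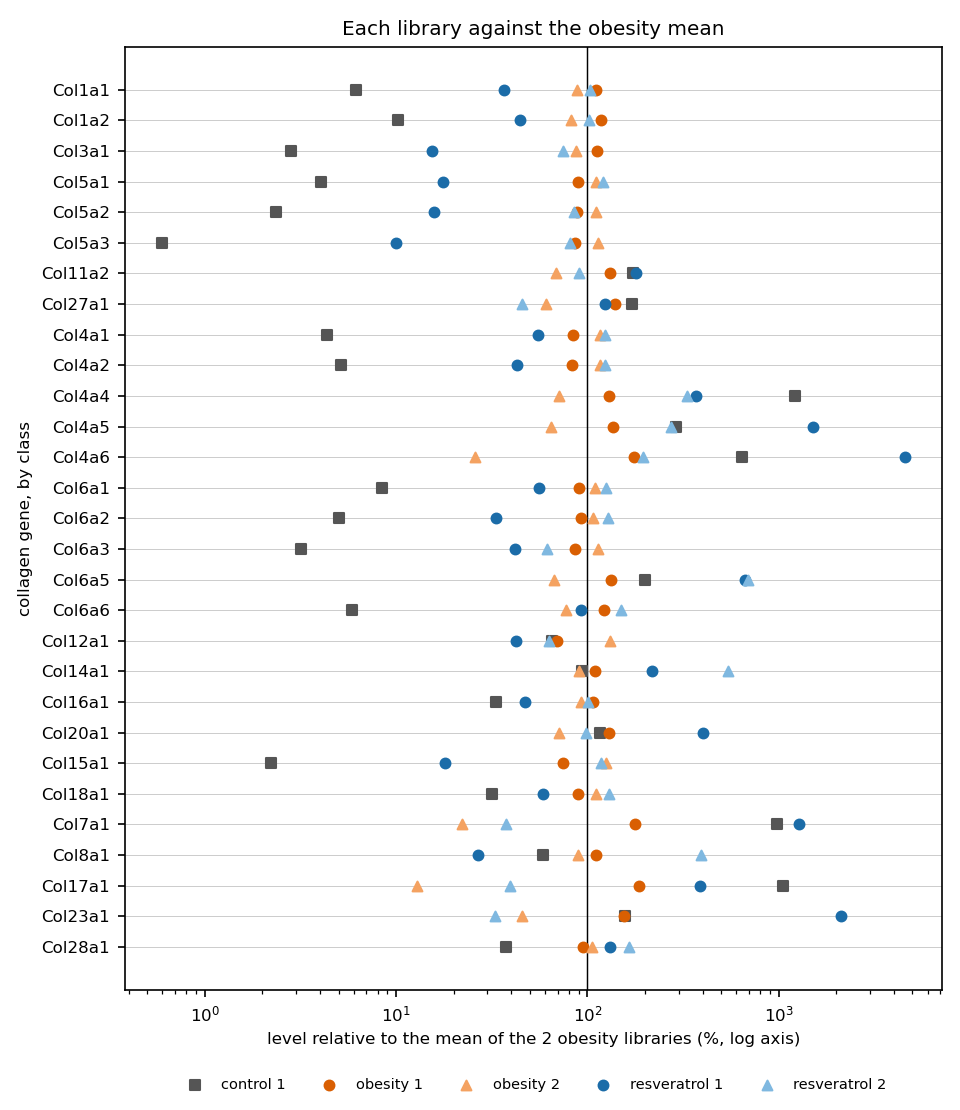
Level of the 29 collagen genes with an obesity mean of at least 1 CPM in each of the 5 libraries, as a percentage of the mean of the 2 obesity libraries (log axis), with a line at 100%. Control and resveratrol library 1 lie left of the line for most fibrillar genes, while Col4a4, Col4a5, Col6a5 and Col14a1 have both resveratrol libraries to the right of both obesity libraries.

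Resveratrol against control gave 27 higher and 13 lower of 40 collagen genes, with a median log2 difference of 1.93 against 0.05 over all genes, and of 1.10 without resveratrol library 1. No gene passed in edgeR's test (0.0% of all genes), and limma-voom called 0 collagen genes. Here too the edgeR fit recovered 0% of genes changed 16-fold in simulated data, so its lack of calls says little. At an unadjusted p under 0.05 there were 20 (18.5% of all genes), of which 16 were higher (10.5% of all genes) and 4 lower (8.05% of all genes). The 4 lower ones were Col4a3, Col4a4, Col6a4 and Col25a1. Among the higher ones Col5a3 differed by 6.26 (SE 1.85), Col6a6 by 4.36 (SE 0.684) and Col14a1 by 2.02 (SE 0.688) on the log2 scale. Without resveratrol library 2 the Col5a3 difference was 4.10 and that of Col14a1 was 1.25. DESeq2 called 17 (12.5% of all genes), 15 higher (8.29%) and 2 lower (4.16%). With only the resveratrol and control libraries in the fit, edgeR called 0 of 41 (0.0% of all genes). Without resveratrol library 1 edgeR called 23 of 38 (30.7% of all genes), without resveratrol library 2 it called 16 of 40 (17.2%), and with no filter 8 of 44 (3.84%). This comparison has the same control library, and its resveratrol libraries are those of the comparison with obesity.

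The genes that make, process and sense collagen were read from 5 lists of 51 genes in all, every one of them tested. In obesity against control 40 were higher and 11 lower, and 0 passed in edgeR. Over all 24779 genes tested, 11613 were higher and 13049 lower. At an unadjusted p under 0.05, 20 were higher and 2 lower, where 12.6% and 11.7% of all genes tested were. Their median log2 difference was 1.52, against -0.10 over all genes. Of the 18 hydroxylases and folding factors 12 were higher. P4ha2, a prolyl hydroxylase subunit, ran against them at 213 CPM in control against 26.4 and 26.5 CPM in obesity, and 41.8 and 35.6 CPM with resveratrol. Plod2, a lysyl hydroxylase, was at 4.12 CPM in control against 16.02 and 14.9 CPM in obesity, and 13.9 and 18.2 CPM with resveratrol. P4ha2 was thus highest in control and Plod2 lowest there.

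Of the 8 genes of propeptide processing, 3 were higher in obesity than in control at an unadjusted p under 0.05 in edgeR and 0 lower. Over all genes tested 12.6% were higher and 11.7% lower at that level. Tll2 had at most 2 counts in each of the control and obesity libraries. Bmp1, the protease that trims the C-terminal end of fibrillar procollagens, was at 42.9 CPM in control against 108 and 119.5 CPM in obesity, and 88.6 and 122 CPM with resveratrol. Tll1, its relative, had no count in control and was at 1.56 and 2.86 CPM in obesity and 1.91 and 3.58 CPM with resveratrol. Of the 5 lysyl oxidase genes, 2 were higher at that level and 0 lower. Lox, which starts the cross-links of collagen and elastin, was at 7.22 CPM in control against 172 and 257 CPM in obesity, and 20.9 and 96.9 CPM with resveratrol. Loxl1 was at 12.5 CPM in control against 123 and 149 CPM in obesity, and 41.2 and 182 CPM with resveratrol. For Lox both resveratrol libraries lay below both obesity libraries, with a log2 difference of -1.86 (SE 0.822), whereas Loxl1 was lowest in resveratrol library 1 and highest in resveratrol library 2 among the mice on the high-fat diet.

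Of the 9 receptor and uptake genes 7 were higher in obesity than in control. Ddr2, a collagen receptor kinase of mesenchymal cells, was at 11.1 CPM in control against 84.8 and 75.2 CPM in obesity, and 134 and 86.3 CPM with resveratrol. Ctsk, which encodes the collagen-cleaving protease cathepsin K, was at 4.71 CPM in control against 269 and 141 CPM in obesity, and 43.7 and 127 CPM with resveratrol. Both were lowest in control. On the TGF-beta axis, a known driver of collagen transcription, 8 of 11 genes were higher. Postn, the gene of the matrix protein periostin, was at 78.6 CPM in control against 236 and 215 CPM in obesity, and 158 and 249 CPM with resveratrol.

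With resveratrol against obesity, 29 of the 51 were higher and 22 lower, and 0 passed in edgeR. At an unadjusted p under 0.05, 3 were higher and 0 lower, where 1.92% and 0.428% of all genes tested were. Their median log2 difference was 0.06, against 0.05 over all genes. The 3 were Ddr1, Tgfb2 and Smad7. Ddr1, the epithelial collagen receptor kinase, was at 65.9 CPM in control against 60.8 and 77.4 CPM in obesity, and 173 and 126 CPM with resveratrol. Tgfb2, a TGF-beta ligand, was at 8.37 CPM in control against 4.43 and 2.62 CPM in obesity, and 29.6 and 19.02 CPM with resveratrol. Smad7, an inhibitor of TGF-beta signalling, was at 13.5 CPM in control against 19.9 and 14.9 CPM in obesity, and 34.03 and 43.8 CPM with resveratrol. In each of the 3 both resveratrol libraries lay above both obesity libraries, as for 16.9% of all genes tested. The 3 were picked by p from these same libraries, so that order adds no support. Their log2 differences were 1.12 (SE 0.303), 2.79 (SE 0.481) and 1.16 (SE 0.303). P3h3, a gene of the prolyl 3-hydroxylase family, was at 9.45 CPM in control against 21.7 and 18.6 CPM in obesity, and 30.98 and 31.9 CPM with resveratrol, and P4ha2 was higher with resveratrol too. Adamts3, a protease that trims the N-terminal end of procollagens, and Tll2 stayed below 2 CPM in every library. Itga1, the integrin subunit of a collagen receptor, was at 21.1 CPM in control against 72.2 and 70.5 CPM in obesity, and 529.7 and 95.7 CPM with resveratrol, with resveratrol library 1 apart. Loxl2, known to cross-link collagen IV, was at 6.14 CPM in control against 57.6 and 46.2 CPM in obesity, and 7.995 and 48.7 CPM with resveratrol, low in control and resveratrol library 1.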

How the data were processed

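Per the labels' protocols, 5 stranded poly-A libraries of visceral adipose tissue were sequenced. The authors deposited raw whole-number counts per Ensembl gene. Per the submitters' processing notes the tools were FastQC and featureCounts and the genome build GRCm39. Aligner, annotation release, strand setting and versions were not stated in any source used. Symbols (65.7% of rows) and exonic lengths came from GENCODE M21, and upstream windows from RefSeq, where 35 of 44 members matched. Both are on GRCm38, so no gene coordinates are given. Of the members, 10 share exon bases with a gene on the opposite strand (Col4a1, Col4a2, Col4a3, Col5a1, Col6a4, Col6a6, Col9a3, Col10a1, Col15a1 and Col22a1).

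In R 4.3.3, edgeR 4.0.16 kept genes by filterByExpr (minimum count 10, minimum total 15), applied TMM factors and fitted all 5 libraries by robust quasi-likelihood, with p adjusted by Benjamini-Hochberg over all genes tested. The control was assumed to vary like the others. The SE is the absolute log2 difference over the square root of F. A fitted difference of a gene with almost no counts in a group depends on the prior count, so none is given for Col11a1, Col25a1 and Tll1. Alternatives were other scalings, filters and samples, DESeq2 1.42.0, limma 3.58.1 (voom) and a replicate block. Tested on simulated data with 100 genes changed 16-fold, the fit recovered 39% in resveratrol against obesity (22847 genes run), with 7 false calls. It recovered 0% in obesity against control (22744 genes run) and 0% in resveratrol against control (22966 genes run). Of genes changed 4-fold in the same runs, it recovered 1% in resveratrol against obesity and 0% in each comparison with control.

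Members, the 5 pathway lists (hydroxylases and folding, propeptide processing, cross-linking, receptors and uptake, TGF-beta axis) and the 7 marker lists were chosen with earlier results of these data known. Collagen genes averaging 1 CPM or more are given in every library. Each pathway list contributes the 2 genes with the smallest p in obesity against control and in resveratrol against obesity, of which 1 is not reported here. Marker genes named are the most abundant, and Crisp1 was added after its values were seen. Figures used Python 3.11.15 and matplotlib 3.10.9.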

Additional observations from a re-analysis of the deposited data

How the results depend on the processing

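The counts of calls depended on the fit. Genes called in edgeR's main analysis numbered 0 in each of the 3 comparisons. DESeq2 called 4524 in obesity against control, 219 between resveratrol and obesity and 3085 between resveratrol and control. Fits with no filter on low counts called 2575, 25 and 1671, and limma-voom called 80 in resveratrol against control. The fit of only the groups compared called 9269 in obesity against control and 0 in each of the other comparisons. Collagen genes called, 0 in the main analysis, numbered 18, 3 and 17 with DESeq2, 12, 1 and 8 with no filter, and 21 in obesity against control with only the groups compared. Leaving out 1 library at a time gave 0 to 9227, 0 to 4758 and 0 to 7469 genes, and 0 to 21, 0 to 21 and 0 to 23 collagen genes, in the same order of comparisons, and leaving out either obesity library gave 0 in each. Without the control library, resveratrol against obesity also had 0 called. Without the control and resveratrol 1 libraries, an alternative chosen after seeing the data, resveratrol against obesity had 66 genes and 3 collagen genes called. The cause was not tested.

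Over all alternatives run, the median log2 difference of collagen genes in obesity against control (0.38) ranged from -0.028 without obesity library 1 to 0.77 with the replicate block, and was 0.47 without obesity library 2, 0.72 with no filter and 0.61 with the stricter filter. Its sign turned only without obesity library 1. In resveratrol against obesity (0.50) it ranged from 0.09 without obesity library 2 to 0.98 without obesity library 1, with 0.14 by limma-voom, 0.25 with the replicate block and 0.26 without resveratrol library 1. In resveratrol against control (1.93) it ranged from 1.10 without resveratrol library 1 to 2.05 with no filter. The log2 ratio of the summed collagen level, resveratrol to obesity (-0.49), ranged from -1.39 without resveratrol library 2 to 0.063 without resveratrol library 1. Total counts without TMM factors moved the median of all genes in obesity against control from -0.10 to -0.23, and 21 in place of 22 collagen genes were then higher. The 45 single-gene differences followed were those with an unadjusted p under 0.05 in the main edgeR fit. They kept their sign in every alternative in which they were tested. Since they were picked from the same counts, a kept sign was likely from the start and adds no support.

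A replicate block called 0 genes in each comparison, as without it. In resveratrol against obesity 10 collagen genes then had an unadjusted p under 0.05 in edgeR, in place of 7. Over all 24779 genes tested the number rose as well, from 581 to 1184. Same-numbered obesity and resveratrol libraries deviated together across genes (correlation 0.282), but nothing in the labels ties the numbers to a shared animal or day.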

Other observations

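Ratios of further collagen pairs, chosen after their values were seen, also set libraries apart. The ratio of Col6a3 to Col6a2 counts was 0.489 and 0.561 in the obesity libraries, 0.664 in resveratrol library 1 and 0.252 in resveratrol library 2, below the 0.338 of control. Relative to Col6a2, the resveratrol libraries thus lay on either side of both obesity libraries, although both were lower than obesity in the level of Col6a3 itself. The ratio of Col4a5 to Col4a6 was 0.941 in control and 0.698 in resveratrol library 1, against 1.63, 5.28 and 2.94 in obesity libraries 1 and 2 and resveratrol library 2. The ratio of Col4a3 to Col4a4 was 0.425 in control and 0.4502 in resveratrol library 1, and 0.197, 0.239 and 0.2797 in the same 3 libraries. Some of these rest on few counts, such as 15 and 11 of Col4a3 and 18 of Col4a6 in the obesity libraries.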
